A study of Sus scrofa with 8 samples.

Results

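Interferon-stimulated genes are the genes that cells switch on when they sense an interferon. A list of 44 of them was looked up by gene symbol in the deposited expression table of a pig (Sus scrofa) lymphoma study, and 40 of the 44 had a row among the 22366 features of the table. Of these, 38 were matched by the symbol in the file and 2, GBP1 and EIF2AK2, through a gene name table. IFIT3, OAS1, XAF1 and RTP4 were not analysed here.

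RNA was sequenced in 8 libraries. Of these, 6 came from lymphoma clones, cell populations grown in culture from manually dissociated tumour tissue and put through 4 rounds of limiting dilution, with 4 clones from a lymph node and 2 from the spleen. The others were 1 library of splenocytes enriched with magnets for CD21+ cells, the normal B cell control, and 1 library of splenocytes enriched for CD3+ cells, the normal T cell control. The clones were set against each control separately, and for the B cell control the study's aim was to find the genes whose expression differed between lymphoma and control B cells. The sources used here do not give the genotype, age, treatment or number of the pigs, so the p-values measure only the spread between these clones. No step of culture is given for the controls, and lymphoma and growth in culture therefore cannot be told apart.

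Type I interferons bind a receptor at the cell surface whose kinases, JAK1 and TYK2, activate STAT2 and its partners. STAT2 binds IRF9, enters the nucleus and switches on interferon-stimulated genes, while IRF1 carries part of the response to interferon gamma. The products detect viral RNA, block its translation or degrade it, tag proteins with the ubiquitin-like protein ISG15, and feed back on the pathway. Many of these genes also have a resting level in lymphocytes without infection.

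Libraries held 16415644 to 27253505 counts. Levels are CPM, counts scaled to a common library size with TMM factors over the 8 libraries, and a gene with 0 counts in a library could still be present at up to 0.105 to 0.177 CPM (3 counts). Listed B cell markers summed to between 2959 and 3942 CPM in the clones, 5314 in the CD21+ control and 310.2 in the CD3+ control, over 6 of 7 markers with a row. Listed T cell markers, 7 of 7, summed to between 42.7 and 56.4 CPM in the clones, 98.5 in the CD21+ control and 5998 in the CD3+ control. The labelled types therefore matched their defining markers. In the clones, CD5 made up 35.3 to 48.4 CPM of that sum. Markers of other cells moved with the comparison. The 10 myeloid markers summed to between 77.9 and 109 CPM in the clones, 299.97 in the CD21+ control and 684 in the CD3+ control, with CD163 at 0 in every clone and S100A8 and S100A9 at 0 in the CD3+ library. ITGAM was the largest single part of the sum in most libraries, at 32.5 to 67.6 CPM in the clones, 141 in the CD21+ control and 584 in the CD3+ control, and CSF1R went against the list, at 28.9 to 48.9 CPM in the clones, 26.6 in the CD21+ control and 12.9 in the CD3+ control. The 4 stromal and endothelial markers summed to between 6.92 and 15.6 CPM in the clones, 187 in the CD21+ control and 108 in the CD3+ control, with COL3A1 at 0 in every clone. PECAM1 made up most of that sum, at 6.92 to 15.5 CPM in the clones, 184 in the CD21+ control and 91.7 in the CD3+ control. COL1A1, COL1A2 and COL3A1 were each at most 1.41 CPM in the CD21+ control and 7.26 in the CD3+ control. For 6 of 7 NK and cytotoxic markers the sums were 17.8 to 27.1 CPM in the clones, 14.7 in the CD21+ control and 989 in the CD3+ control, with PRF1 and NCR1 at 0 in every clone. For 3 of 4 erythroid and platelet markers the sums were 0 to 0.0566 CPM in the clones, 19.6 in the CD21+ control and 9.27 in the CD3+ control, with HBB and ALAS2 at 0 in every clone. Of the plasmacytoid dendritic cell markers, cells known for making type I interferon, only SPIB had a row, at 25.0 to 59.9 CPM in the clones, 319 in the CD21+ control and 1.77 in the CD3+ control. The part of such cells in the results below was not tested, and in these bulk libraries fewer cells of a type and less RNA per cell cannot be told apart.

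Most interferon-stimulated genes were lower in the lymphoma clones than in either control. Together, the 40 genes took 0.121 ± 0.0126% of the counts in the clones (SD, n = 6), with a range of 0.104% to 0.139%, against 0.240% in the CD21+ control and 0.236% in the CD3+ control. Every clone was below both controls on this share, which is taken from library totals and uses no TMM factors. Members with high counts weigh most in it. Against the CD21+ library, 32 of the 39 members tested fell, 2 rose (IFIT2 and IFIT5) and 5 did not pass (DDX58, IRF7, MX2, HERC5 and DTX3L). OASL was not tested there because of its low counts. A call here is an adjusted p at or under 0.05 in edgeR's quasi-likelihood test, adjusted by Benjamini-Hochberg over all features tested. Of the 13498 features tested, 32.4% fell and 34.8% rose, 67.2% in all. The median log2 fold change was -1.17 over the members and 0.05 over all features tested.

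Against the CD3+ library, all 40 members were tested. There, 27 fell, 4 rose (IFIT2, IFIT5, IRF7 and HERC5) and 9 did not pass. Of the 13560 features tested in this comparison, 35.1% fell and 36.8% rose, 72.0% in all, and the median log2 fold change was -1.26 over the members and 0.05 over all features. Both comparisons share the 6 clones, so they are not independent of each other. Side by side, 26 members fell against both controls and 2 rose against both. The share of all features called in both comparisons is not given here, so these joint counts stand without a background. MX1, UBA7, USP18, TRIM25, CMPK2 and ADAR fell against the CD21+ library alone, and DDX58, MX2 and DTX3L passed in neither comparison.

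In most members the clones did not overlap a control, and the same held for most of all features tested. The members differed from all features mainly in the direction. All 6 clones were below the CD21+ library in 33 members and above it in 2, against 39.5% and 43.6% of the features tested. All 6 were below the CD3+ library in 29 members and above it in 5, against 40.8% and 45.3% of features. In 29 members every clone was below both controls, which was the case in 28.9% of the features tested against CD21+. IFIT2 and IFIT5 were the 2 members with every clone above both controls, which was the case in 34.1% of features.

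**Figure D1:**
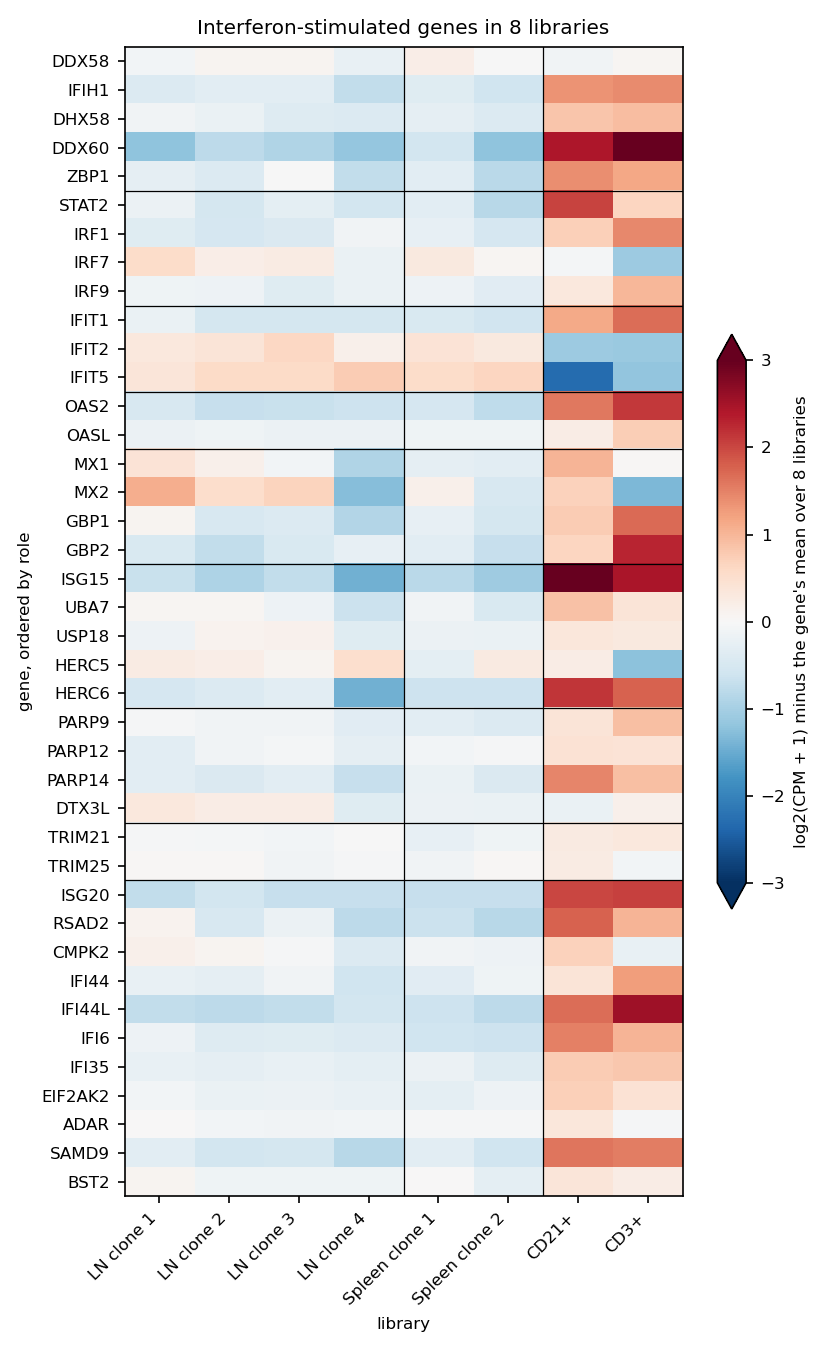
Level of 40 interferon-stimulated genes (rows, grouped by role and separated by horizontal lines) in 8 libraries (columns; LN is lymph node), as log2(CPM + 1) minus the gene's mean over the 8 libraries, with the colour scale cut at -3 and 3. The clone columns are mostly blue and the CD21+ and CD3+ columns mostly red, and IFIT2 and IFIT5 show the opposite pattern, with all 6 clones above both controls.

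These counts depended on scaling. With library totals in place of TMM factors, the median log2 fold change of all features moved to 0.35 against CD21+ and 0.51 against CD3+, and 6189 features rose and 3093 fell against CD21+, in place of 4697 and 4372. The members then split into 2 that rose and 21 that fell against CD21+, and into 7 that rose and 23 that fell against CD3+, where 6852 of all 13560 features rose and 3115 fell. The change of scaling adds nearly the same amount to the log2 fold change of every gene, so the median of the members relative to that of all features was about the same by construction, at -1.21 with library totals and -1.22 with TMM against CD21+ and at -1.31 with both against CD3+. The members whose fall against CD21+ was lost with library totals were IRF9, MX1, USP18, PARP9, PARP12, TRIM21, TRIM25, CMPK2, IFI44, ADAR and BST2. Against CD3+ they were PARP12, TRIM21, EIF2AK2 and BST2, while TRIM25, CMPK2 and ADAR passed as higher in the clones.

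Sensors of foreign nucleic acid fell in 4 of 5 members in both comparisons. The largest change among them was in DDX60, a helicase linked to signalling by the RNA sensor RIG-I. DDX60 had 0.622, 1.19, 1.03 and 0.681 CPM in the lymph node clones and 1.57 and 0.629 CPM in the spleen clones, against 19.2 CPM in the CD21+ control and 39.3 CPM in the CD3+ control. The highest clone was far below either control. The log2 fold change of DDX60 was -4.32 ± 0.37 (SE) against CD21+ (edgeR adjusted p = 2.04e-05) and -5.38 ± 0.34 against CD3+ (edgeR adjusted p = 3.04e-06). IFIH1, which encodes MDA5, a sensor of long double-stranded RNA, had 13.8 to 18.8 CPM in the clones (median 17.9), 61.7 in the CD21+ control and 65.1 in the CD3+ control, with log2 fold changes of -1.87 and -1.97. ZBP1, a sensor of Z-form nucleic acid that can start cell death, changed by -2.13 and -1.91, and DHX58, which encodes the RIG-I relative LGP2, by -1.22 and -1.34.

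DDX58, which encodes RIG-I itself, was the sensor that passed in neither comparison. It had 11.04 to 15.2 CPM in the clones (median 13.4), 12.05 in the CD21+ control and 13.8 in the CD3+ control, so the clones spanned both controls. Its log2 fold changes were 0.12 ± 0.18 (SE) and -0.09 ± 0.18. In the RefSeq annotation 38319 of the 84432 bases of DDX58 also lie within ACO1, and whether reads were counted by strand is not stated, so reads of the 2 genes may not be separated. ACO1 had 1851 to 2691 counts in the clones, 918 in the CD21+ control and 177 in the CD3+ control. DDX58 had 217 to 437, 264 and 233 counts. What shared reads add to the level of DDX58 in the clones was not tested.

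Among the transcription factors, STAT2 and its partner IRF9 fell. STAT2 had 74.2, 57.8, 68.2 and 56.5 CPM in the lymph node clones and 67.3 and 46.2 CPM in the spleen clones, against 344 CPM in the CD21+ control and 131 CPM in the CD3+ control. All clones were below both controls. The log2 fold change of STAT2 was -2.49 ± 0.18 (SE) against CD21+ (edgeR adjusted p = 8.27e-06) and -1.13 ± 0.20 against CD3+ (edgeR adjusted p = 0.00102). IRF9 was near the detection limit in the clones, at 0.190 to 0.396 CPM (median 0.352), against 0.913 in the CD21+ control and 2.07 in the CD3+ control. Its fall of 1.55 (log2) against CD21+ had an edgeR adjusted p of 0.0227 and was not called by DESeq2.

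IRF1, which carries much of the response to interferon gamma, had 54.2 to 71.6 CPM in the clones (median 58.1), 128 in the CD21+ control and 212 in the CD3+ control, with log2 fold changes of -1.10 ± 0.14 and -1.86 ± 0.13. The RefSeq gene lies wholly within the annotated span of SLC22A5, with the same limit on reads as for DDX58. IRF7, a main switch for the production of type I interferon, behaved otherwise. It had 16.4 to 28.2 CPM in the clones (median 22.2), 18.3 in the CD21+ control and 8.44 in the CD3+ control. The clones thus overlapped the B cell control and were all above the T cell control. The log2 fold change of IRF7 was 0.25 ± 0.24 (SE) against CD21+ (edgeR adjusted p = 0.377) and 1.35 ± 0.28 against CD3+ (edgeR adjusted p = 0.00247).

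The IFIT genes, whose proteins bind RNA with features foreign to the cell, moved in opposite directions. In the RefSeq annotation of Sscrofa11.1, the build to which the reads were aligned, IFIT2 lies on chromosome 14 at 101193421-101204292, IFIT1 at 101237403-101249486 and IFIT5 at 101254818-101266105. The gap between IFIT1 and IFIT5 is 5331 bases, and that between IFIT2 and IFIT1 is 33110 bases.

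IFIT5 had 65.3, 76.4, 75.6 and 87.1 CPM in the lymph node clones and 75.1 and 79.9 CPM in the spleen clones, against 9.40 CPM in the CD21+ control and 21.9 CPM in the CD3+ control. The lowest clone was well above the higher control. IFIT5 rose by 3.01 ± 0.17 on the log2 scale against CD21+ (edgeR adjusted p = 2.63e-06), an 8.07-fold difference, and by 1.77 ± 0.16 against CD3+ (edgeR adjusted p = 1.91e-05). IFIT2, which can promote cell death in human cells, had 7.01, 7.43, 8.84 and 6.13 CPM in the lymph node clones and 7.53 and 6.88 CPM in the spleen clones, against 2.01 CPM in the CD21+ control and 1.95 CPM in the CD3+ control. Here too no clone overlapped a control. The log2 fold change of IFIT2 was 1.85 ± 0.26 against CD21+ (edgeR adjusted p = 0.00035) and 1.87 ± 0.27 against CD3+ (edgeR adjusted p = 0.000322).

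IFIT1, which recognises RNA caps that lack methylation, went the other way. Its level was 13.0, 10.1, 10.2 and 10.04 CPM in the lymph node clones and 10.6 and 9.68 CPM in the spleen clones, against 34.3 CPM in the CD21+ control and 50.5 CPM in the CD3+ control. All clones were below both controls, and the log2 fold change of IFIT1 was -1.71 ± 0.15 against CD21+ (edgeR adjusted p = 2.24e-05) and -2.29 ± 0.14 against CD3+ (edgeR adjusted p = 2.5e-06). The IFIT genes are related in sequence and may share reads, and RefSeq places IFIT1 and IFIT2 wholly within the annotated span of LIPA, so counts of this cluster carry an uncertainty that the replicate spread does not show. LIPA had between 1050 and 2226 counts in the clones, 1434 in the CD21+ control and 2002 in the CD3+ control.

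**Figure D2:**
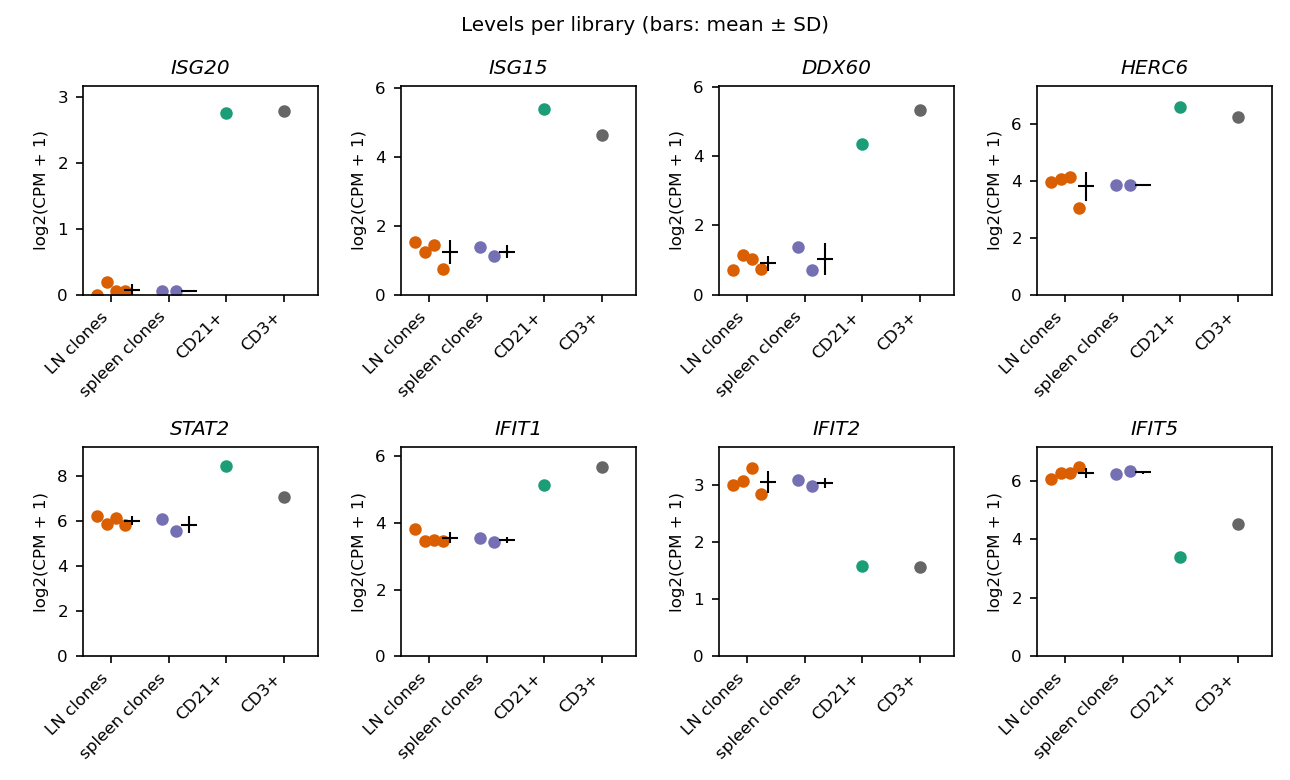
Level of 8 interferon-stimulated genes in each library as log2(CPM + 1), with 1 point per library for the 4 lymph node (LN) clones, 2 spleen clones, the CD21+ control and the CD3+ control, and horizontal marks with bars for the mean ± SD of each clone group. The clones lie below both controls for ISG20, ISG15, DDX60, HERC6, STAT2 and IFIT1 and above both for IFIT2 and IFIT5.

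OAS2 makes the short adenylate chains that switch on the RNA-cleaving enzyme RNase L. It had 57.7 to 69.8 CPM in the clones (median 62.9), against 294 CPM in the CD21+ control and 434 CPM in the CD3+ control. The clones lay within a narrow band far below both controls, and the log2 fold changes of OAS2 were -2.22 ± 0.09 and -2.80 ± 0.09. OASL, a relative without this enzyme activity in humans, had only 3 counts over the 6 clones, against 7 counts in the CD21+ control and 15 in the CD3+ control. After scaling, OASL was 15.5 times higher in the CD21+ library than in the clones, with a 95% counting interval of 3.53 to 92.7, and 42.9 times higher in the CD3+ library (12.1 to 231). Such intervals cover counting error only.

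Of the interferon-inducible GTPases, GBP1 and GBP2, guanylate-binding proteins best known as responders to interferon gamma, fell in both comparisons. GBP1 had 69.7 to 137 CPM in the clones (median 94.8), 221 in the CD21+ control and 425 in the CD3+ control, with log2 fold changes of -1.17 ± 0.26 and -2.14 ± 0.24. GBP2 had 12.2 to 17.8 CPM in the clones (median 15.1), 33.4 in the CD21+ control and 107 in the CD3+ control, with log2 fold changes of -1.17 ± 0.18 and -2.87 ± 0.16. No clone overlapped a control in either gene.

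The dynamin-like GTPases MX1 and MX2, which block incoming viruses, had the largest SDs of log2(CPM + 1) among the clones. MX2 had 129, 87.6, 96.3 and 24.3 CPM in the lymph node clones and 67.7 and 42.8 CPM in the spleen clones, against 98.0 CPM in the CD21+ control and 23.3 CPM in the CD3+ control. Lymph node clone 1 was above the CD21+ library, and lymph node clone 4 was close to the CD3+ library. MX2 passed in neither comparison, with log2 fold changes of -0.41 ± 0.67 against CD21+ (edgeR adjusted p = 0.61) and 1.64 ± 0.82 against CD3+ (edgeR adjusted p = 0.104). Without lymph node clone 4, MX2 passed against CD3+ with a log2 fold change of 1.82 (edgeR adjusted p = 0.0178). MX1, 21436 bases from MX2 on chromosome 13, had 38.6, 32.1, 27.1 and 15.1 CPM in the lymph node clones and 23.8 and 22.9 CPM in the spleen clones, against 59.5 CPM in the CD21+ control and 29.6 CPM in the CD3+ control. MX1 was below the CD21+ library in all clones and on both sides of the CD3+ library, with log2 fold changes of -1.18 ± 0.35 (edgeR adjusted p = 0.0171) and -0.20 ± 0.39 (edgeR adjusted p = 0.662).

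ISG15 and the enzymes that attach it to proteins did not change alike. ISG15 had 1.87, 1.38, 1.71 and 0.681 CPM in the lymph node clones and 1.60 and 1.17 CPM in the spleen clones, against 40.4 CPM in the CD21+ control and 24.02 CPM in the CD3+ control. The gap to either control was far larger than the spread among the clones. The log2 fold change of ISG15 was -4.87 against CD21+ (edgeR adjusted p = 4.43e-06) and -4.14 ± 0.34 against CD3+ (edgeR adjusted p = 1.21e-05). UBA7, the enzyme that activates ISG15, had 1.72 to 3.48 CPM in the clones (median 2.91), 6.80 in the CD21+ control and 4.55 in the CD3+ control. It fell by 1.32 ± 0.35 against CD21+ (edgeR adjusted p = 0.0101) and did not pass against CD3+ (-0.76 ± 0.38, edgeR adjusted p = 0.102), although every clone was below both controls. In RefSeq, 8965 of the 10765 bases of UBA7 lie within TRAIP, with the same limit on reads as for DDX58. TRAIP had 670 to 889 counts in the clones, 371 in the CD21+ control and 102 in the CD3+ control.

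USP18 removes ISG15 and restrains signalling at the interferon receptor. Its level was 15.2 to 21.4 CPM in the clones (median 17.5), 25.0 in the CD21+ control and 24.4 in the CD3+ control. USP18 sat on the threshold in both comparisons, with a log2 fold change of -0.46 ± 0.18 in each and edgeR adjusted p of 0.0499 against CD21+ and 0.0534 against CD3+. The call against CD21+ was lost when lymph node clone 1, spleen clone 1 or spleen clone 2 was left out. It was also lost with total-count scaling, without the filter for low counts and in 1 fit of all 8 libraries.

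HERC5 and HERC6 are neighbouring genes for ubiquitin-type ligases, 3782 bases apart on chromosome 8. HERC5 is the main ISG15 ligase in humans, and HERC6 has that role in mice. HERC6 had 14.8, 15.8, 16.8 and 7.24 CPM in the lymph node clones and 13.6 and 13.7 CPM in the spleen clones, against 97.5 CPM in the CD21+ control and 75.7 CPM in the CD3+ control. It was lower in every clone than in either control, with log2 fold changes of -2.85 ± 0.28 against CD21+ (edgeR adjusted p = 4.71e-05) and -2.51 ± 0.29 against CD3+ (edgeR adjusted p = 9.76e-05). HERC5 had 43.9, 43.0, 39.6 and 53.4 CPM in the lymph node clones and 29.9 and 44.6 CPM in the spleen clones, against 43.4 CPM in the CD21+ control and 15.1 CPM in the CD3+ control. The clones lay on both sides of the CD21+ library (log2 fold change -0.05 ± 0.24, edgeR adjusted p = 0.869) and all above the CD3+ library (1.45 ± 0.28, edgeR adjusted p = 0.00182). Lymph node clone 4 was the lowest clone in HERC6 and the highest in HERC5.

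**Figure D3:**
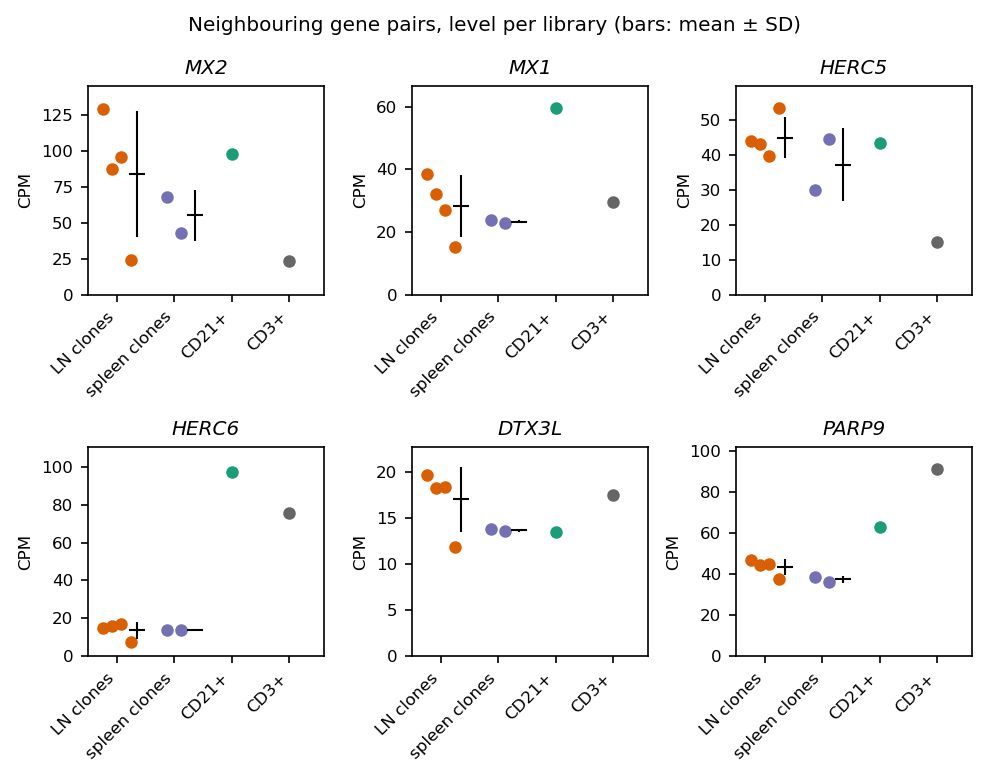
Level in CPM of 3 pairs of neighbouring members (MX2 with MX1, HERC5 with HERC6, DTX3L with PARP9) in each library, with 1 point per library and horizontal marks with bars for the mean ± SD of each clone group (LN is lymph node). HERC6 is at 7.24 to 16.8 CPM in the clones and above 70 CPM in both controls, while HERC5 overlaps the CD21+ library. MX2 spans 24.3 to 129 CPM among the lymph node clones.

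PARP9 and DTX3L work together as an ubiquitin ligase complex and lie side by side on chromosome 13, sharing 395 bases. PARP9 had 36.1 to 46.7 CPM in the clones (median 41.6), 63.0 in the CD21+ control and 91.2 in the CD3+ control, with log2 fold changes of -0.62 ± 0.14 and -1.18 ± 0.13. DTX3L had 11.9 to 19.7 CPM in the clones (median 16.1), 13.5 in the CD21+ control and 17.5 in the CD3+ control, and it passed in neither comparison (0.23 ± 0.28 and -0.18 ± 0.27). The ADP-ribosyltransferase genes PARP14 and PARP12 fell in both, with log2 fold changes of -1.90 and -1.36 for PARP14 and of -0.60 and -0.59 for PARP12.

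The TRIM ubiquitin ligases showed small changes. TRIM21, which detects antibody inside the cell, had 13.7 to 16.3 CPM in the clones (median 15.6), 19.99 in the CD21+ control and 20.5 in the CD3+ control, and its log2 fold changes were -0.40 ± 0.12 and -0.46 ± 0.12. TRIM25, which ubiquitinates RIG-I, had 26.8 to 29.9 CPM in the clones (median 28.8), 34.3 in the CD21+ control and 27.4 in the CD3+ control. It fell by 0.28 ± 0.09 against CD21+ and did not pass against CD3+ (0.02 ± 0.10).

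All 11 remaining effectors fell against CD21+, and 9 of 11 fell against CD3+. The largest change of any member was in ISG20, an exonuclease that degrades RNA. ISG20 had 0, 0.143, 0.038 and 0.036 CPM in the lymph node clones and 0.035 and 0.042 CPM in the spleen clones, against 5.75 CPM in the CD21+ control and 5.90 CPM in the CD3+ control. These clone values rest on 7 counts over the 6 libraries, so only the direction and a large size can be read from the log2 fold changes of -6.76 ± 0.52 (edgeR adjusted p = 1.22e-05) and -6.82 ± 0.54 (edgeR adjusted p = 1.06e-05).

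IFI44L had 26.9 to 32.1 CPM in the clones (median 27.9), 153 in the CD21+ control and 279 in the CD3+ control, and it changed by -2.42 ± 0.09 and -3.32 ± 0.09. Its neighbour IFI44 changed less, by -0.70 ± 0.18 and -1.60 ± 0.16. SAMD9, a restriction factor for poxviruses, had 53.7 to 77.7 CPM in the clones (median 65.8), 295 in the CD21+ control and 279 in the CD3+ control, with log2 fold changes of -2.15 ± 0.15 and -2.09 ± 0.15. The clones were far from both controls in these genes. IFI6 changed by -2.04 and -1.56, and IFI35 by -1.06 and -1.13.

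RSAD2, which encodes viperin, a producer of a nucleotide that stops viral polymerases, had 5.07 to 10.6 CPM in the clones (median 6.30), 35.8 in the CD21+ control and 20.7 in the CD3+ control. Its log2 fold changes were -2.37 ± 0.31 and -1.60 ± 0.34. CMPK2, a nucleotide kinase 5585 bases away on chromosome 3, fell by 0.80 ± 0.18 against CD21+ and did not pass against CD3+ (0.11 ± 0.20). EIF2AK2, the kinase PKR that stops translation on sensing double-stranded RNA, changed by -0.93 ± 0.08 and -0.67 ± 0.08. ADAR, which edits adenosine in double-stranded RNA, fell by 0.42 ± 0.07 against CD21+ and did not pass against CD3+ (-0.07 ± 0.07). BST2, or tetherin, which holds budding virus at the cell surface, changed by -0.49 ± 0.14 and -0.38 ± 0.15. Its call against CD3+ was lost without lymph node clone 2 or lymph node clone 3, without the filter for low counts and with total-count scaling.

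**Figure D4:**
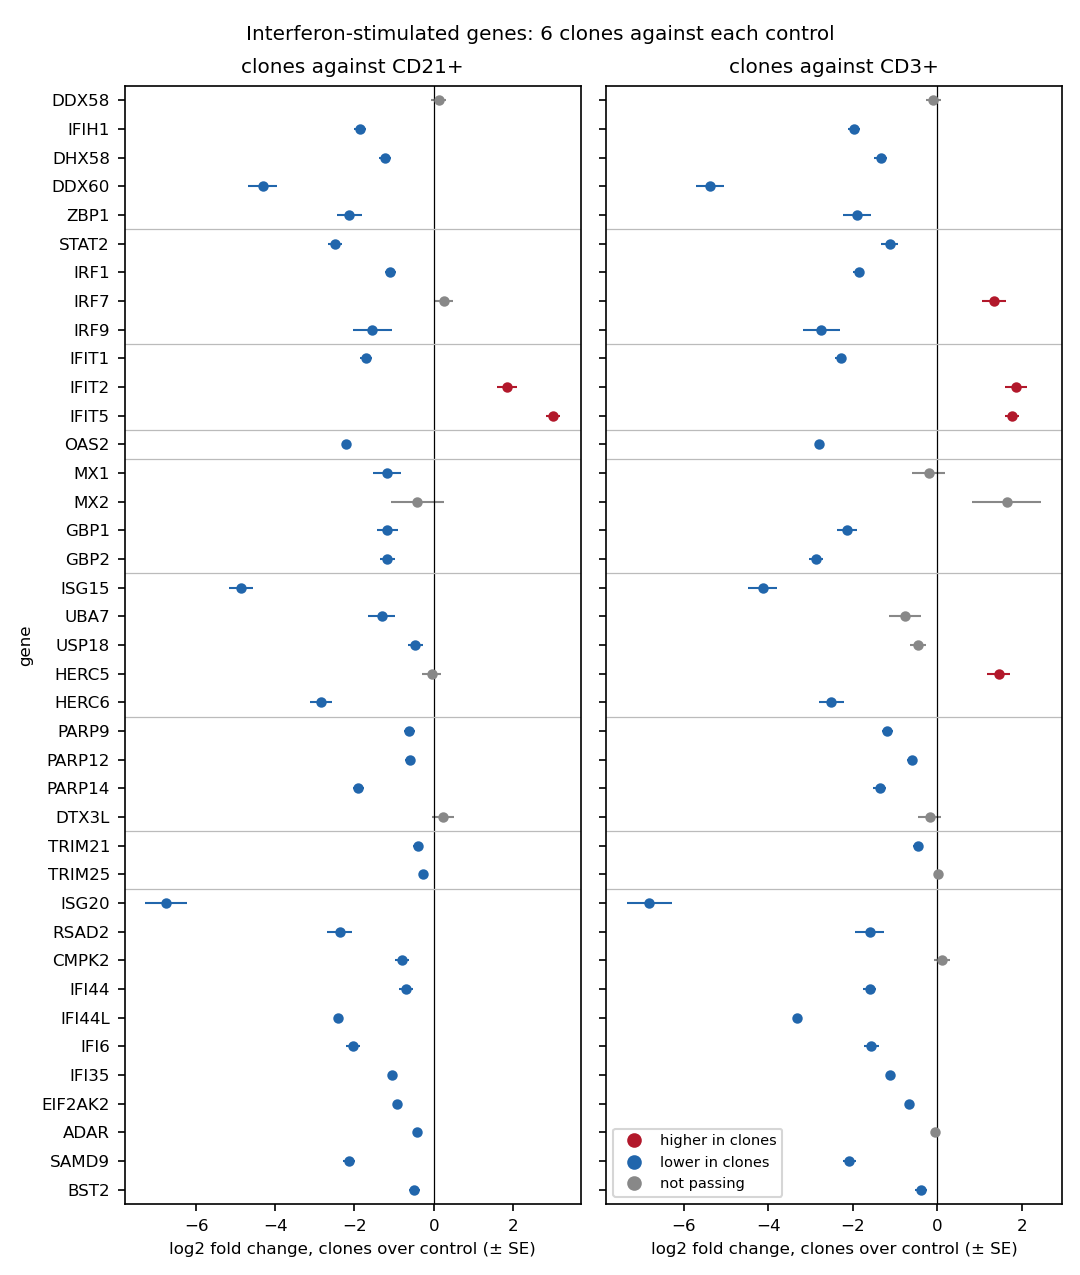
Log2 fold change (± approximate SE) of 39 interferon-stimulated genes, clones over the CD21+ library (left) and over the CD3+ library (right), from edgeR, with genes grouped by role. Red marks genes that rose in the clones, blue those that fell and grey those that did not pass; OASL, with 3 counts over the clones, is not drawn. Most points lie left of 0 in both panels, while IFIT2 and IFIT5 lie right of 0 in both.

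The controls, with 1 library each, can be compared with each other only as values. Among the 39 members at 1 CPM or more in either control, 5 were at least 2-fold higher in the CD21+ library (STAT2, IRF7, MX1, MX2 and HERC5), against 13.8% of 11963 features, and 4 were at least 2-fold lower (DDX60, IRF9, IFIT5 and GBP2), against 16.9% of features. The ratio of the CD21+ to the CD3+ library was 4.21 for MX2 (95% counting interval 3.78 to 4.70), 2.88 for HERC5 (2.50 to 3.31), 2.61 for STAT2 (2.49 to 2.74) and 0.313 for GBP2 (0.287 to 0.341). These ratios have no replicate check. IRF7 and HERC5, which rose against CD3+ and did not pass against CD21+, are both among the 5. That largely follows from the reuse of the same control libraries, and is no separate result.

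Among the clones the members varied somewhat more than other features. The SD of log2(CPM + 1) over the 6 clones had a median of 0.170 in the members and 0.134 in all features tested against CD21+. The largest SDs were those of MX2 (0.862, with 99.3% of features below it), MX1 (0.445) and HERC6 (0.402). With a pseudocount of 0.1 in place of 1, MX2 kept the largest SD (0.878), and DDX60 (0.504) and ISG15 (0.487) came before MX1 (0.463). The clones also differed over many members at once. Lymph node clone 1 was the highest clone in 18 of 40 members, against 22.4% of all features. Lymph node clone 4 was the lowest in 16 members, against 26.5% of features, and spleen clone 2 was the lowest in 11, against 14.8%. The median deviation of the members from their mean over the clones was 0.096 in lymph node clone 1, -0.132 in lymph node clone 4 and -0.120 in spleen clone 2, on the log2(CPM + 1) scale. Lymph node clone 4 stood apart over the whole table as well: chi-square per feature was 26.0 to 49.1 in its pairs with other clones, and 3.97 to 30.4 in the pairs without it. These values grow with the depth of a pair, and lymph node clone 4 was the deepest library. Spleen clone 1 was nearly as deep, with 27040555 counts against 27253505, and its pairs without lymph node clone 4 were at 11.4 to 28.4. The part of depth was not tested.

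The site of the tumour gave no called member in the main fit, which has no replicate block. Calls with such a block, for which no pairing of clones is stated, are given in the last section. In the comparison of the 4 lymph node clones with the 2 spleen clones, 0 of 37 members tested passed in edgeR, and 0 of all 12580 features, a background of 0%. At an unadjusted p under 0.05, edgeR and limma-voom each had 1 member, IFI6, and DESeq2 had 0, and DESeq2 adjusted over all features called 20 features and none of the members. The features with an unadjusted edgeR p under 0.05 were 605, or 4.81% of those tested. IFI6, an interferon-induced protein, had 11.3, 9.39, 9.52 and 9.21 CPM in the lymph node clones, against 7.88 and 7.80 CPM in the spleen clones, a log2 fold change of 0.33 ± 0.14 (edgeR adjusted p = 0.942). The groups did not overlap in IFI6 and TRIM21, where all lymph node clones were higher, against 7.48% of features, and 0 members had all lymph node clones lower, against 7.99%. Log2 fold changes of the members ran from -0.32 in DDX60 to 0.61 in MX2, with a median of 0.04 beside 0.00 over all features. The largest of these, in MX2, was within the spread of the lymph node clones, which spanned 24.3 to 129 CPM.

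The genes around the members in the interferon pathway were taken from lists of textbook members, 64 of which had a row. The counts of calls below stand beside 34.8% of all features that rose and 32.4% that fell against CD21+. Against CD3+ these shares were 36.8% and 35.1%. Interferons themselves were hardly detected in the clones. IFNB1 and IFNK had 0 counts in all 8 libraries, IFNA1 had 1 count in lymph node clone 1 and 0 elsewhere, and IFNE had 9 counts in the CD3+ library and 0 in every other library. In IFNG, interferon gamma, the 6 clones held 2 counts, against 8 in the CD21+ control and 686 in the CD3+ control, and its scaled level was 2943 times higher in the CD3+ library than in the clones (95% counting interval 811 to 24347). A count of 0 over the 6 clones allows up to 0.0206 CPM.

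Receptors and JAK-STAT genes mostly fell against CD21+, with 7 of 10 lower and 1 higher, and against CD3+ with 6 lower and 1 higher. IFNAR1, a chain of the type I interferon receptor, changed by -0.84 ± 0.19 and -1.22 ± 0.18. IFNGR2, a chain of the interferon gamma receptor, had 19.1 to 41.5 CPM in the clones, 243 in the CD21+ control and 50.8 in the CD3+ control, and it fell by 2.93 ± 0.29 against CD21+. The kinase JAK1 was the gene of this list that rose against CD21+, by 1.19 ± 0.20, with 601 to 867 CPM in the clones, 294 in the CD21+ control and 600.5 in the CD3+ control. STAT4, which transmits signals of IL-12 and is high in T cells, changed by -4.69 ± 0.29 and -8.38 ± 0.16.

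Among genes that induce interferon, 8 of 14 fell and 1 rose against CD21+, and 7 fell and 6 rose against CD3+. IRF5, a transcription factor downstream of Toll-like receptors, had 11.99 to 14.3 CPM in the clones, 351 in the CD21+ control and 27.9 in the CD3+ control, with log2 fold changes of -4.74 ± 0.09 and -1.11 ± 0.13. TMEM173, which encodes the DNA-sensing adaptor STING, had 0.036 to 0.339 CPM in the clones, 1.51 in the CD21+ control and 68.4 in the CD3+ control, with log2 fold changes of -3.09 ± 0.66 and -8.62 ± 0.34. TLR7, an RNA sensor of endosomes, rose by 1.50 ± 0.32 against CD21+ and by 3.31 ± 0.40 against CD3+. MAVS, the adaptor of RIG-I and MDA5, had 36.1 to 38.4 CPM in the clones, 38.7 in the CD21+ control and 41.3 in the CD3+ control, with log2 fold changes of -0.08 ± 0.08 and -0.19 ± 0.08.

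Of 8 negative regulators, 4 fell and 0 rose against CD21+, and 6 fell and 1 rose against CD3+. The largest change was in SOCS3, an inhibitor of JAK kinases that STAT signals induce. SOCS3 had 0.095 to 0.314 CPM in the clones, 42.5 in the CD21+ control and 271 in the CD3+ control, with log2 fold changes of -7.63 ± 0.25 and -10.32 ± 0.14. SOCS1, a related inhibitor, had 1.47 to 3.45 CPM in the clones, 4.02 in the CD21+ control and 17.6 in the CD3+ control, and it fell against CD3+ alone (-2.96 ± 0.33).

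Of 27 other interferon effectors with a row, 14 fell and 4 rose among 24 tested against CD21+, and 12 fell and 7 rose among 22 tested against CD3+. The 4 that rose against CD21+ were IFITM3, TDRD7, TRIM14 and PLSCR1. IFITM3, which blocks fusion of viruses in endosomes, had 81.6 to 92.3 CPM in the clones, 15.4 in the CD21+ control and 35.6 in the CD3+ control, with log2 fold changes of 2.48 ± 0.11 and 1.25 ± 0.10. TDRD7 rose by 2.79 ± 0.21 against CD21+ and fell by 0.43 ± 0.15 against CD3+. SAMHD1, which destroys the deoxynucleotides that viruses need, changed by -2.92 ± 0.19 and -5.43 ± 0.18. The interferon-induced chemokine CXCL9 had 0 counts in the clones and 141 in the CD21+ control, which makes it at least 312-fold lower in the clones by a floor of 3 counts over the 6 clones. CXCL10 fell by 4.44 ± 0.22 against CD21+ and did not pass against CD3+ (-0.06 ± 0.40), and IDO1 had 10 counts over the clones and fell by 7.08 ± 0.48 against CD21+. Over the pathway lists together, 6 of 56 genes tested rose and 33 fell against CD21+, with a median log2 fold change of -0.94. Against CD3+, 15 of 55 rose and 32 fell, with a median of -0.59. Of all features tested, 34.8% rose and 32.4% fell against CD21+, and 36.8% rose and 35.1% fell against CD3+. The median over all features was 0.05 in both comparisons. With total-count scaling these lists split into 13 that rose and 32 that fell against CD21+, and into 20 that rose and 22 that fell against CD3+, beside the counts over all features given above for this scaling. Against CD21+ the fall of TBK1 was then lost, and MAVS, PIAS1, IRF2, PNPT1, PARP11, CMTR1 and LAP3 were also called higher. Against CD3+ the falls of IL10RB, TYK2, STAT3, TICAM1, IRF3, PIAS1, SP110, TDRD7 and ZC3HAV1 were lost, with the sign turned in TYK2, PIAS1 and TDRD7. IFNLR1, JAK1, MYD88 and IRF2 were also called higher there, and MAVS, which fell against CD3+ with TMM, rose.

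**Figure D5:**
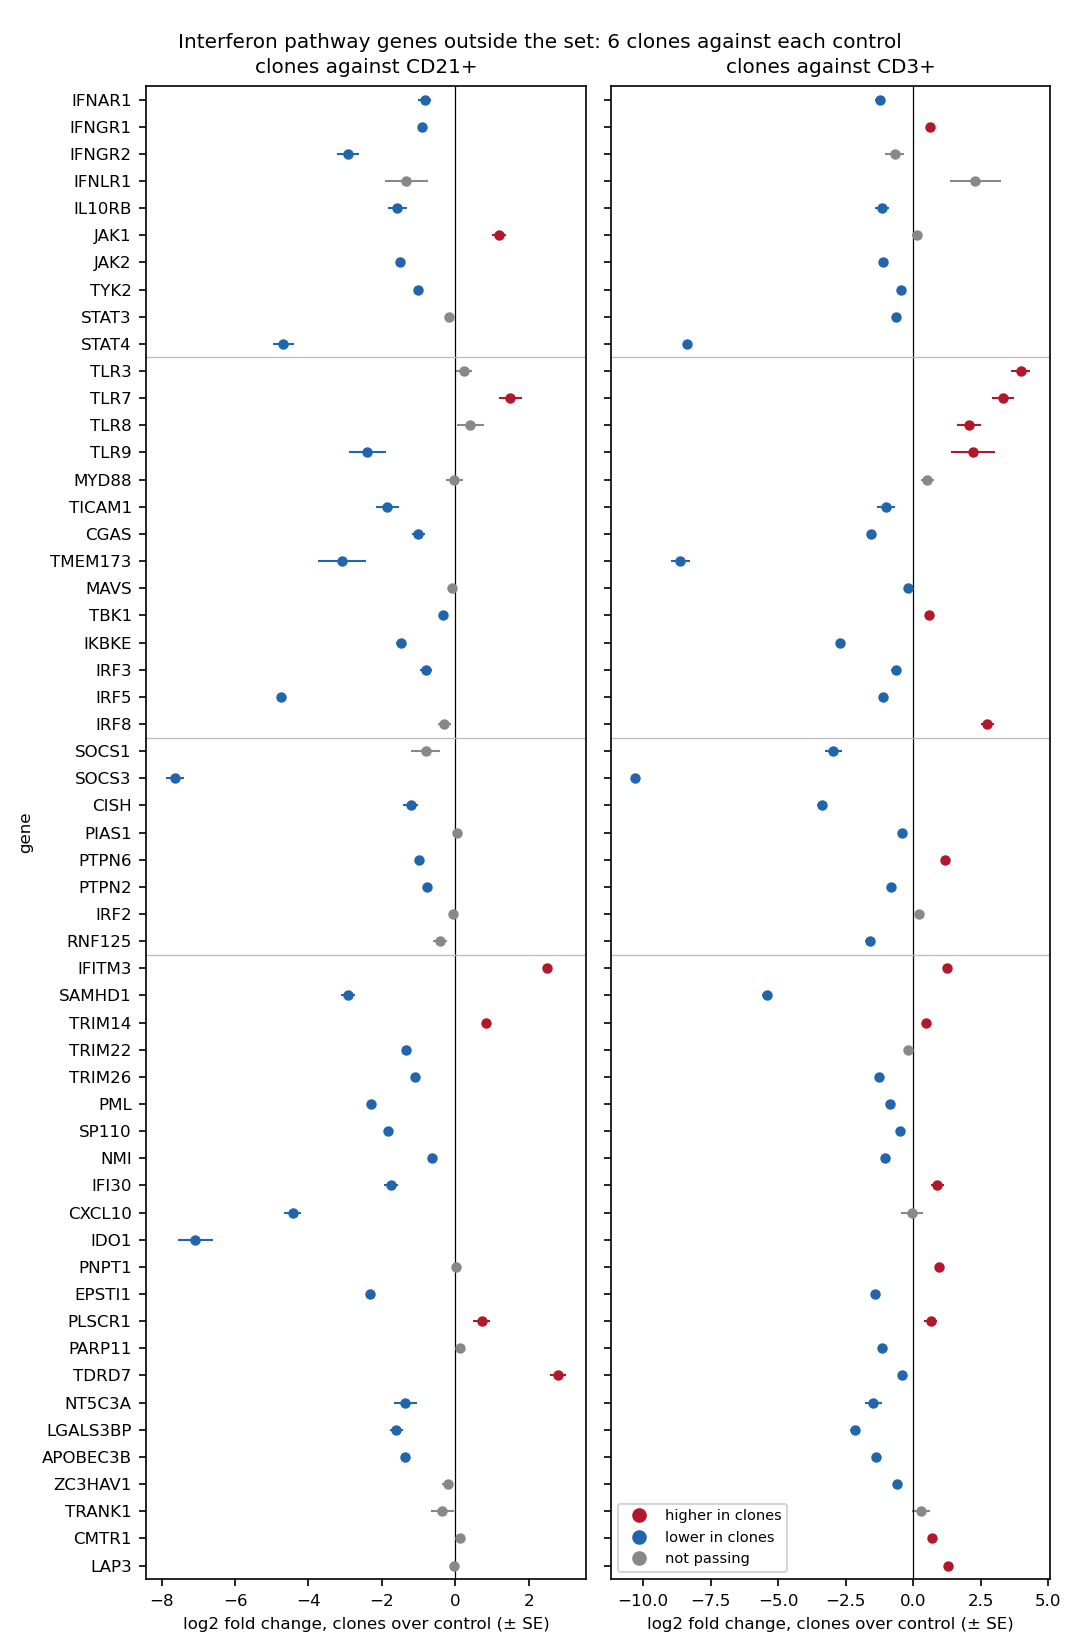
Log2 fold change (± approximate SE) of interferon pathway genes outside the 40 members, clones over the CD21+ library (left) and over the CD3+ library (right), from edgeR, in blocks for receptors and JAK-STAT, induction of interferon, negative regulators and other effectors. Red marks genes that rose in the clones, blue those that fell and grey those that did not pass; genes with 3 counts or fewer over the clones are not drawn. SOCS3, STAT4 and TMEM173 lie far to the left in both panels, and IFITM3 and TLR7 lie right of 0 in both.

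The authors' deposited table of the clones against the CD21+ library lists 2 of the 40 members as higher in the clones and 29 as lower at a false discovery rate at or under 0.05, beside 4233 features higher and 4179 lower of 22366. USP18, TRIM21, TRIM25 and BST2, called lower above, did not pass there, while OASL, not tested above, passed as lower. In the authors' deposited table the signed fold was 8.14 for IFIT5, 3.63 for IFIT2, -5.32 for IFI44L and -7.15 for HERC6, with negative values for genes lower in the clones.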

How the data were processed

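RNA from 6 lymphoma clones, 1 CD21+ and 1 CD3+ library was sequenced with paired reads. Trimmomatic, Bowtie2 and edgeR are named, without versions, in the submitters' processing notes, and the design text says that reads were aligned to Sscrofa11.1. The sources used here name no counting tool, annotation or strandedness. Per the file headers, the authors deposited read counts per gene for 7 and for 8 libraries, identical where shared. In the deposited table of 8 libraries the count columns end in 2 lines without a feature ID that hold totals and factors, so the unit of that table was set to expected counts, and those lines were left out. Per the file headers the authors also deposited a signed linear fold, read as a score, and FDR p-values. A further 16 columns of per-sample values were not used.

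Levels are CPM with TMM factors over 8 libraries. Tests used edgeR 4.0.16 in R 4.3.3 (two-sided quasi-likelihood test with TMM, after filterByExpr, and Benjamini-Hochberg over all features tested, threshold 0.05), with 6 clones against each control in a fit of its own and 4 lymph node against 2 spleen clones. Each control has 1 library, so the spread comes from the clones, and the control is taken to vary as they do. The SE beside a log2 fold change is approximate, the change over the square root of its F statistic, and adds nothing to the test. On simulated data, 96.5%, 95.5% and 98.5% of 200 changed genes were recovered in the comparisons with CD21+, with CD3+ and between sites. Each changed gene had a log2 fold change of 2, up or down, with a fixed spread and no change in the other genes. The recovery therefore does not measure the power for smaller changes or for the spread of these clones.

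Alternatives were RLE factors, total-count scaling, no filter, DESeq2 1.42.0, limma-voom 3.58.1, all 8 libraries in 1 fit, leaving out each clone, and a replicate block. The members and the lists were chosen with earlier results of these data known. From the pathway lists, 1 gene is left out and is not reported here. Values per library are given for members passing in the rarer direction against CD21+, for the 6 with the largest change there and for the 3 with the largest spread among clones. IFIT1, HERC5 and IFI6 were added after their values were seen. Positions are those of RefSeq for Sscrofa11.1, found for 39 of 40 members.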

Additional observations from a re-analysis of the deposited data

Results flagged for a closer look

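Each member, and the share of counts of all members together, was screened for a library far from the others, over the 6 clones and over the 4 lymph node clones. Of 82 such groups of values, 8 held one, where chance gives about 1 in 20. Lymph node clone 1 was high in IFIT1, at 13.0 CPM, with the other clones at 9.68 to 10.6 CPM and the other lymph node clones at 10.04 to 10.2 CPM. Among the lymph node clones it was also high in IFI6, at 11.3 CPM with the others at 9.21 to 9.52 CPM. The same held in ADAR, at 57.4 CPM with the others at 53.3 to 53.9 CPM, and in BST2, at 19.5 CPM with the others at 16.8 to 16.9 CPM. Lymph node clone 4 was low in HERC6, at 7.24 CPM with the other clones at 13.6 to 16.8 CPM. Lymph node clone 2 was high in ISG20, at 0.143 CPM with the other clones at 0 to 0.0419 CPM, and in OASL, at 0.0476 CPM with the other lymph node clones at 0. The values of ISG20 and OASL rest on 7 and 3 counts over the 6 clones.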

How the results depend on the processing

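No member that passed in a direction against a control passed in the other direction under any alternative run. Of members that did not pass, MX1 had a log2 fold change against CD3+ of -0.20 with TMM and 0.26 with total-count scaling, and ADAR, at -0.07 with TMM, was called higher with total-count scaling. With total-count scaling, 21 members fell against CD21+ with a median of -0.87, and 7 rose against CD3+ with a median of -0.80. RLE factors, no filter, DESeq2, limma-voom, 1 fit of all 8 libraries and leaving out a clone gave 31 or 32 lower members against CD21+ and 26 to 28 against CD3+, and 2 higher against CD21+. Against CD3+ 4 were higher, or 5 without lymph node clone 4.

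Between lymph node and spleen clones, the median of the members was -0.026 to 0.15 with a clone left out. HERC6, at 0.0025 there, was at -0.00016 without a filter, at -0.11 with limma-voom, at -0.0077 in the fit of all libraries and at -0.11 to 0.22 with single clones left out. The labels share replicate numbers 1 and 2 between the sites, but nothing says that they pair clones, and the deviations of same-numbered clones correlated at 0.23 and -0.05. With the replicate block, 2 members were higher (MX2, log2 fold change 0.99, and MX1, 0.60), the median was 0.16, and 420 features were higher and 150 lower. Numbers 3 and 4 occur only among the lymph node clones, so the site effect in this fit comes from clones 1 and 2 of each site. Lymph node clone 4, the lowest clone in MX2 at 24.3 CPM, thus adds nothing to it. The cause of the added calls was not tested. The search of promoters for interferon response motifs was not run. With limma-voom, no filter, 1 fit of all 8 libraries or most single clones left out, the fall of MAVS against CD3+ was lost. Depth limits ISG20, OASL and IRF9.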
